A study of Mus musculus with 30 samples.

Results

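Cytosolic ribosomal protein genes encode the proteins of the ribosome that translates messages in the cytoplasm. They were taken by symbol, as Rpl or Rps followed by a number and an optional letter or x or l suffix, together with Rplp0, Rplp1, Rplp2 and Rpsa, and without the pseudogenes marked -ps and the Rps6k kinases. The rule found 84 of the 57133 genes in each count table, 52 of the large subunit (Rpl) and 32 of the small subunit (Rps). It does not reach Rps3a1, Fau and Rack1, among others, which also encode proteins of this ribosome. A further 299 genes carried the -ps mark.

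Most of these proteins are needed in equal numbers, and the cell sets their output largely at translation. Many of the messages begin with a C followed by an unbroken stretch of pyrimidines, the terminal oligopyrimidine (TOP) motif, through which mTOR signalling and the binding protein LARP1 govern how much of the message is translated. Assembly starts in the nucleolus, where RNA polymerase I makes ribosomal RNA and a large set of assembly factors trims it and folds it with the proteins. When assembly is disturbed, Rpl5 and Rpl11, bound to 5S ribosomal RNA, can bind MDM2 and so raise p53. Mitochondria, abundant in kidney tubule cells, have ribosomal proteins of their own (Mrpl and Mrps genes), which are not counted here.

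The data were poly-A RNA-seq counts of 30 mouse kidney libraries, wild type (WT) or carrying a transgene that the labels call Gsta2-H2BeGFP (TG). Without surgery there were 3 libraries each of WT males, TG males, WT females and TG females. The other libraries were all of males: 3 WT and 3 TG with nephrectomy (NX, surgical removal of a kidney), and 6 WT and 6 TG with nephrectomy plus ischemia-reperfusion injury (IRI, a loss and later return of blood flow), taken 4 hours after injury. No-surgery libraries fill 1 table and NX and IRI libraries the other, so surgery and table cannot be told apart, and no test was made across them. The labels give neither the promoter of the transgene, nor ages, nor when NX kidneys were taken, nor whether each library is a separate animal, and a p-value here reflects only how far single libraries of a group lie apart. Replicates are numbered from 0, which stands for a title with no number.

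Libraries held 49040915 to 66446450 counts without surgery and 59574069 to 91354407 with NX or IRI. The transgene's EGFP sequence was counted in all 15 TG libraries (86 to 1294 counts) and in 1 of 15 WT libraries, the library labelled WT IRI replicate 1 (206 counts), which is kept under its label. The series title speaks of raised Gsta2, a glutathione transferase gene, in male proximal tubule cells. Without surgery, reads counted to Gsta2 itself were at 89.2 to 105 CPM in WT males and 38.5 to 72.3 CPM in TG males. With NX they were at 57.6 to 79.3 CPM in WT and 72.7 to 182 CPM in TG. With IRI they were at 52.6 to 142 CPM in WT and 61.6 to 87.2 CPM in TG. Females were at 301 to 354 CPM in WT and 293 to 339 CPM in TG. Proximal tubule markers were high throughout, with Slc34a1, a phosphate transporter, at 4183 to 8798 CPM (counts scaled to library size, as used below for all levels). The adipocyte hormone gene Adipoq was highest in WT NX replicate 0 (35.7 CPM), WT female replicate 1 (25.6 CPM), TG male replicate 1 (25.2 CPM) and WT male replicate 1 (12.7 CPM), and counts that lead a comparison are also given without these 4 libraries.

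The first bases of a message carry the TOP motif, so 30 bases around the annotated RefSeq start (15 before and 15 from it, GRCm38.p6) are printed for 6 members that recur in the results. Capitals mark a C that opens at least 5 pyrimidines within 5 bases of the start; the last 3 windows hold no such run. Rps24 has another annotated start downstream of the printed one, whose window holds no run.
Rps24 (chr14:24490663-24490692, plus strand): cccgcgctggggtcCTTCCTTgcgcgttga
Rpl14 (chr9:120571502-120571531, plus strand): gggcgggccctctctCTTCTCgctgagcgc
Rps6 (chr4:86857353-86857382, minus strand): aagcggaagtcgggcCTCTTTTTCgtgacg
Rps4x (chrX:102189377-102189406, minus strand): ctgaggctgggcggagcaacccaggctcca
Rpl5 (chr5:107900513-107900542, plus strand): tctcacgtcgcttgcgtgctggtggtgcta
Rpsa (chr9:120127751-120127780, plus strand): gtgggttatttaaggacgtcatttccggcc
A run was found at a start of 29 of the 62 members that have one in the table (46.8%), against 5718 of 27025 genes (21.2%), and 22 members have no start there. The letters CTTCCG, read on both strands in the promoter and first bases of the transcript, were in 24 of the 62 (38.7%), against 3042 of 27025 genes (11.3%); they can overlap a pyrimidine run. A window with no run says only that these letters are not in it.

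Of the 84 members, 75 averaged 10 CPM or more over the 30 libraries, whose 2 tables were scaled separately. Per kb of annotated exon bases the highest were Rplp1, a protein of the stalk that recruits elongation factors (531 CPM per kb), Rps15, a small subunit protein (295 CPM per kb), and Rps2, at the entry of the message channel (252 CPM per kb). The lowest were Rpl10l, with 0 counts in every library, Rpl39l, with 16 counts in 5 libraries, and Rpl36al (0.427 CPM per kb). Rpl10l and Rpl39l are known from testis. Exon bases include every annotated exon, so a long annotation lowers this value: Rps15a stood at 83.7 CPM but 13.3 CPM per kb over 6270 bases.

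Other low members were Rpl24 (0.678 CPM), Rps10 (1.49 CPM) and Rpl13a (8.85 CPM), a common reference gene. In their transcripts 72.5%, 44.2% and 52.7% of 150-base windows also occur in another gene's transcript. How reads with several matches were counted is not stated in the sources used here, so the low values may not be the level of the message. The median share of such windows was 20.8% over the 81 members with a protein-coding transcript in GENCODE M21, and 18 members had more than 50%. Rps4l, Rpl6l and Rpl32l have no such transcript, and Rpl6l is annotated as a processed pseudogene.

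Within groups the members varied little. The SD of log2 CPM within groups had a median of 0.11 over the 75 members at 10 CPM or more, against 0.15 over the 9135 genes at that level. Rpl22, an RNA-binding protein of the large subunit, was the steadiest (0.08), and Rps4l (0.31) and Rplp0 (0.25) were among the least steady.

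The members stood higher in females than in males. In the 6 females they summed to 1.52 to 1.77% of library counts (median 1.65%), and in the 6 males without surgery to 1.25 to 1.44% (median 1.30%), with no overlap. WT females were at 1.72 ± 0.0675% and TG females at 1.57 ± 0.0695% (SD, n = 3 each). WT males were at 1.35 ± 0.0805% and TG males at 1.29 ± 0.0529% (SD, n = 3 each). With NX the share was 1.12 to 1.32% in 6 male libraries and with IRI 1.13 to 1.35% in 12. Such a share is relative to all other messages, and in bulk tissue fewer cells of a type and less RNA per cell cannot be told apart.

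**Figure D1:**
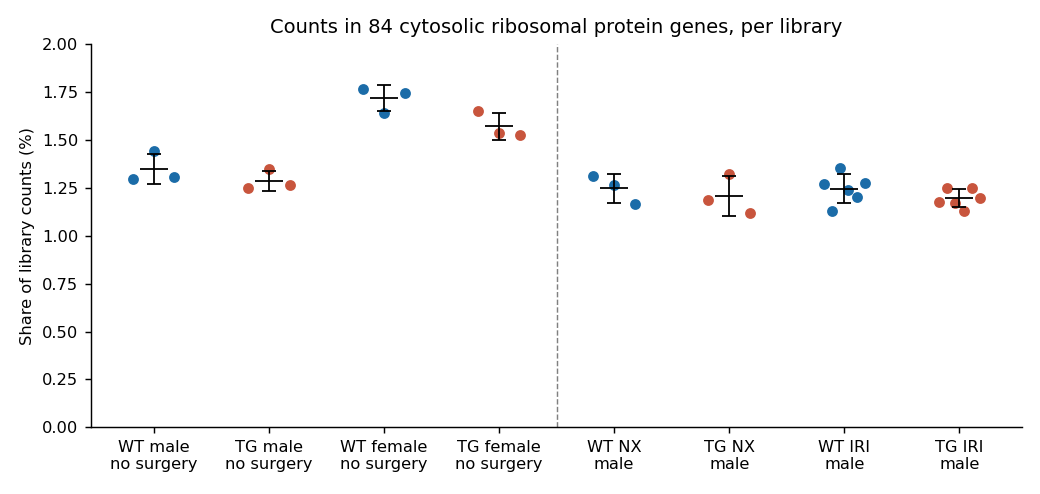
Share of library counts (%, y axis from 0) in the 84 cytosolic ribosomal protein genes, by group; points are libraries, with mean and SD, and the dashed line parts the 2 count tables. The 6 female libraries lie at 1.52 to 1.77%, above the 6 no-surgery males at 1.25 to 1.44%.

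Gene by gene, 34 of the 82 members tested were called higher in WT females than in WT males and 1 lower (edgeR quasi-likelihood test, Benjamini-Hochberg adjusted p under 0.05 over 19126 genes). Over all genes 10.1% were called higher and 11.3% lower. The members' median change was 0.23 on the log2 scale, or 1.17-fold, against 0.03 over all genes, and 76 of 82 estimates were above 0 (53.2% over all genes). The median was 0.22 over 50 large subunit members and 0.28 over 32 of the small subunit. In 46 members all 3 females lay above all 3 males, as did 18.5% of all genes. All 34 called higher were among the 75 at 10 CPM or more.

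Rpl23a, at the rim of the tunnel through which the new protein leaves, had the smallest p. It was at 57.4, 53.4 and 55.3 CPM in the WT females and 41.7, 43 and 43.6 CPM in the WT males (0.37 ± 0.06, log2 and SE, adjusted p = 0.00065). Rps4x, encoded on the X chromosome, was at 399, 362 and 382 CPM against 293, 301 and 292 CPM (0.37 ± 0.06, adjusted p = 0.000887). In both genes every female stood clear of every male, by 1.29-fold on the fitted estimate.

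Rps24, whose human counterpart is mutated in some people with Diamond-Blackfan anaemia, was at 230.08, 228 and 227 CPM in WT females against 178, 186 and 175 CPM in WT males (0.35 ± 0.06, adjusted p = 0.000989). Rps14, of the small subunit's platform, was at 289, 265 and 282 CPM against 219, 229 and 221 CPM (0.32 ± 0.06, adjusted p = 0.00118). These groups did not overlap either.

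In TG libraries 19 of 82 members were called higher in females and 1 lower, against 9.87% and 11.3% of all genes. The median change was 0.15, or 1.11-fold, against 0.02 over all genes. Of the estimates 67 of 82 were above 0 (52.3% over all genes), and in 44 members all females lay above all males (19.8%). Rpl14, of the large subunit, led with 187, 173 and 189.57 CPM in TG females against 128, 138 and 131 CPM in TG males (0.47 ± 0.07, adjusted p = 0.000749). In WT it was at 229, 187 and 211 CPM against 154, 149 and 161 CPM (0.43 ± 0.07, adjusted p = 0.00127), so the sexes were apart in both genotypes.

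Next in TG came Rps4x, at 356, 327 and 331 CPM against 267, 280.41 and 261 CPM (0.33 ± 0.06, adjusted p = 0.00195), and then Rpl23. Rpl23, which like Rpl5 and Rpl11 can bind MDM2, was at 251, 244 and 241 CPM against 199, 187 and 191 CPM (0.35 ± 0.07, adjusted p = 0.00227). The largest fitted change among called members in TG was that of Rpl21 (0.49 ± 0.14, adjusted p = 0.0237).

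Both genotypes called 13 members, 38.2% of the WT list and 68.4% of the TG list: Rpl5, Rpl6, Rpl14, Rpl22, Rpl23, Rpl23a, Rpl30, Rps3, Rps4x, Rps14, Rps19, Rps24 and Rps27a. The same overlap was not counted over all genes, so these percentages have no background beside them. No member passed the test of whether the sex difference depended on genotype (0 of 82, background 0.00523%, and 0 by DESeq2 and by limma-voom). At an unadjusted p under 0.05 there was 1, against 8.58% of all genes: Rplp1, with a sex difference of 0.41 ± 0.08 in WT and 0.16 ± 0.07 in TG (interaction -0.26 ± 0.11, adjusted p = 0.53).

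Lists by role are small and were not tested against the members as a whole. Of all members tested 41.5% were called higher in WT females and 23.2% in TG females, and of all genes 10.1% and 9.87%. By role, 1 of the 3 stalk proteins was called in WT and none in TG. Rplp1 was at 349.57, 329.64 and 346 CPM in WT females and 257, 283 and 229 CPM in WT males (0.41 ± 0.08, adjusted p = 0.00171). Rplp2 had a like estimate with a larger error (0.42 ± 0.17, adjusted p = 0.094), and Rplp0 was at -0.05 ± 0.16 (adjusted p = 0.875). Whether the 3 differ from each other was not tested. Of the 5S partners, Rpl5 was called higher in females in WT (0.21 ± 0.06, adjusted p = 0.0192) and TG (0.30 ± 0.06, adjusted p = 0.00267); Rpl11 was at 286, 242 and 273 CPM in WT females against 220.34, 249.98 and 186 CPM (adjusted p = 0.0511). The WT call of Rpl5 ended when WT male replicate 0, WT female replicate 0 or WT female replicate 2 was left out (adjusted p 0.0648 to 0.0927).

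At the exit tunnel rim 2 of 7 were called in WT (Rpl23a and Rpl31) and 2 of 7 in TG (Rpl23a and Rpl26). Near the peptidyl transferase centre, where peptide bonds form, none of Rpl3, Rpl4 and Rpl10 passed in WT and Rpl3 passed in TG (0.34 ± 0.08, adjusted p = 0.0113), though not without TG female replicate 0 (adjusted p = 0.0529). At the entry of the message channel Rps3 passed in both genotypes and Rps2 in neither. These counts, too, stand beside 41.5% of all members called higher in WT females and 23.2% in TG females (10.1% and 9.87% of all genes). Of 10 Diamond-Blackfan anaemia genes 5 were called higher in WT females and 4 in TG females. Among them was Rps19, at 207, 170.4 and 190.1 CPM in WT females against 137, 151 and 144 CPM in WT males (adjusted p = 0.0025).

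Rps6, the substrate of the S6 kinases, was at 258, 228 and 249.82 CPM in WT females and 197, 222 and 191 CPM in WT males (0.27 ± 0.07, adjusted p = 0.0161). The groups did not overlap, but the call ended in 4 of the fits without a single WT library, namely female 0, female 2, male 0 and male 2 (adjusted p 0.0592 to 0.0764). In TG it did not pass (0.18 ± 0.07, adjusted p = 0.0949).

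Members with a pyrimidine run at the start and members without one had like sex differences. In WT the median was 0.23 over 29 tested members with a run, of which 10 were called higher, and 0.23 over 31 without, of which 13 were called higher. Rps24, with a run at 1 of its 2 starts, and Rpl14, whose run is printed above, and Rps4x and Rpl5, whose windows hold none, were called in both genotypes.

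Other translation genes were called in both directions, where over all genes 10.1% were higher and 11.3% lower in WT females and 9.87% and 11.3% in TG females. Of 14 translation factors with TOP messages 3 were higher and 3 lower in WT females, and 2 and 2 in TG females; the number called was 3 when WT male replicate 0 or WT female replicate 2 was left out, and 2 without TG female replicate 2. Eif3f, an initiation factor subunit, was at 126 ± 8.78 CPM in WT females and 98.7 ± 2.62 CPM in WT males (SD, n = 3 each, adjusted p = 0.00139). Pabpc1, the poly-A binding protein, was lower (-0.24 ± 0.06, adjusted p = 0.0159). Of 78 mitochondrial ribosomal protein genes 8 were higher and 6 lower in WT females, near the shares over all genes, and 3 and 23 in TG females. The number called was 9 without WT female replicate 0 and 8 without WT male replicate 0. In TG it was 16 without TG male replicate 0 and 15 without TG female replicate 1 or 2.

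Markers of other cells are given beside the sex difference, and their part in it was not tested. Over all genes 10.1% were higher and 11.3% lower in WT females, and 9.87% and 11.3% in TG females. Of 11 leukocyte genes tested 0 were called in either genotype. All 13 listed leukocyte genes summed to 97.3 to 108 CPM in WT males and 101.1 to 122 CPM in WT females. Endothelial genes were higher for 2 of 6 in WT and 1 of 6 in TG, with sums of 479 to 569 CPM in WT males and 484 to 726 CPM in WT females. Proximal tubule genes gave 1 higher and 2 lower of 8 in WT and 2 and 2 in TG, with sums of 17501 to 21624 CPM in WT males and 16203 to 18484 CPM in WT females. Red cell genes gave 0 calls, and adipocyte genes 1 of 6 in WT (Lep) and 0 in TG. Lep was near the floor, with a median of 0.025 CPM and 14 of 30 libraries at 0, and Adipoq was at 0 in 10 of 30. Without the libraries high in Adipoq 49 members were called higher and 0 lower in WT females, and 14 and 1 in TG females. These fits hold fewer libraries, and their shares over all genes are not given here.

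The counts depend on single libraries. In WT the number called was 17 without WT female replicate 0, 18 without WT female replicate 2, 20 without WT male replicate 0 and 19 without WT male replicate 2, and 22 when only WT libraries entered the fit. In TG it was 7 without TG female replicate 0, 11 without TG male replicate 2 and 13 without TG male replicate 1.

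**Figure D2:**
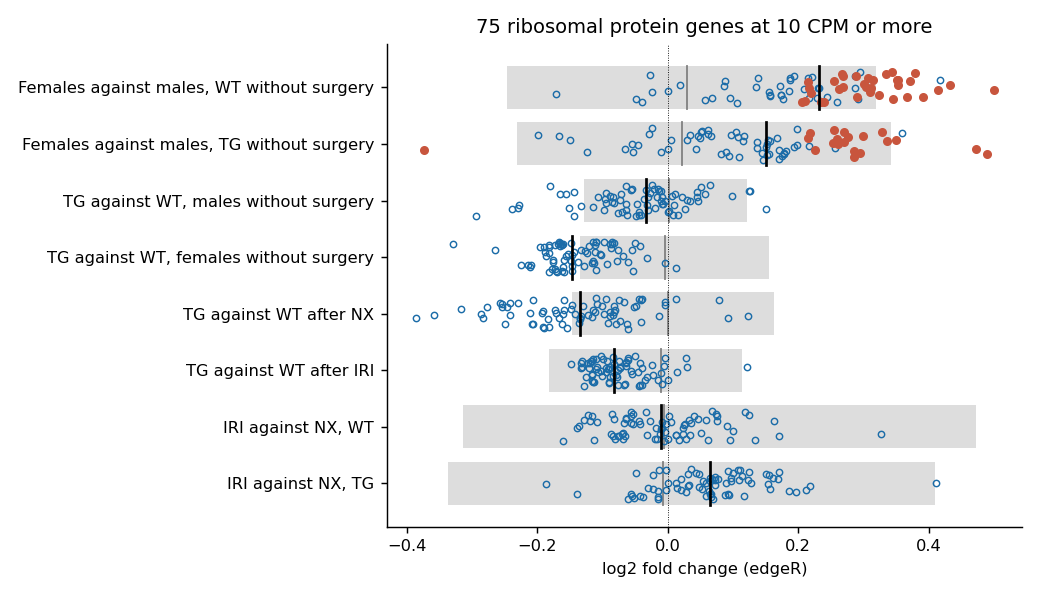
Fitted log2 fold change (x axis) of the 75 ribosomal protein genes at 10 CPM or more in each comparison; filled points passed the edgeR test and open points did not, the black bar is the members' median, and grey marks give the median and middle 50% of all genes tested. The members' medians are 0.23 and 0.15 for females against males and lie between -0.15 and 0.07 in the comparisons of genotype and injury.

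No member was called between TG and WT in any of the 4 settings, nor by DESeq2 or limma-voom. In males without surgery 0 of 82 passed (background 0.00523%), the median change was -0.04, and 6 were lower and 0 higher at an unadjusted p under 0.05 (2.9% of all genes were lower). In females 0 of 82 passed (background 0.0418%), with a median of -0.15 and 3 of 82 estimates above 0 (49.1% over all genes). At an unadjusted p under 0.05, 19 were lower and 0 higher there (4.3% of all genes were lower). Rps7, of the small subunit, had the smallest p, with 257, 241 and 250.29 CPM in TG females against 296, 269 and 287 CPM in WT females (-0.19 ± 0.06, adjusted p = 0.388).

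With NX 0 of 81 passed (background 0.0117%), with a median of -0.13 and 7 of 81 estimates above 0 (49.9% over all genes). At an unadjusted p under 0.05, 9 were lower and 0 higher (3.56% of all genes were lower). The first was Rpl27, of the large subunit, at 113, 129 and 117 CPM in TG and 146, 169.81 and 151 CPM in WT (-0.39 ± 0.10, adjusted p = 0.73). Rps14 followed with 184, 194 and 163 CPM in TG against 238, 242 and 210.18 CPM in WT (-0.36 ± 0.10, adjusted p = 0.73). In both the groups were apart, yet neither passed over all genes.

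With IRI 0 of 82 passed (background 0.0701%), with a median of -0.08 and 6 of 82 estimates above 0 (47.7% over all genes). None reached an unadjusted p under 0.05, which 14.1% of all genes did. Over the 75 members at 10 CPM or more all ranges of 2 SE lay between -0.42 and 0.37. With NX 66 of the 75 ranges lay within 0.5 of 0. The members' medians were below 0 in all 4 settings; estimates within a setting share their libraries and scaling.

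At 4 hours after IRI the ribosomal protein messages stood near their NX levels. In WT 1 of 82 members was called higher and 0 lower, where 16.8% of all genes were called higher and 14.1% lower. In TG 1 was called higher and 0 lower, where 16.4% and 13% of all genes were. The members' median change was -0.01 in WT and 0.07 in TG. At an unadjusted p under 0.05 there were 2 in WT (40.7% of all genes) and 5 in TG (39% of all genes). DESeq2 called 1 in WT and 2 in TG, and limma-voom 1 and 5.

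None of the 75 members at 10 CPM or more was called. Their estimates ran from -0.16 (Rpl27) to 0.33 (Rps4l) in WT and from -0.19 (Rplp0) to 0.41 (Rps4l) in TG, with a median SE of 0.09 in each. The range of 2 SE lay within 0.5 of 0 for 74 of 75 in WT and 73 of 75 in TG. No member passed the test of whether the response to injury depended on genotype (0 of 82, background 0%; 2 at an unadjusted p under 0.05, against 9.59% of all genes; 0 by DESeq2 and by limma-voom).

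Rps6 was at 183, 180.13 and 176 CPM in WT NX and at 169 to 215 CPM (median 191) in WT IRI. Rpl5 was at 242, 187 and 187 CPM in WT NX and 173 to 221 CPM (median 194) in WT IRI. Rpl11 was at 215, 189.59 and 183 CPM in WT NX and 194 to 217 CPM (median 207) in WT IRI. The NX and IRI values overlapped in all 3. Rpl13a was at 9.29, 7.97 and 8.25 CPM in WT NX and 6.58 to 8.67 CPM (median 8.1) in WT IRI.

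The split of calls after IRI moved with the scaling. With upper-quartile factors 1 member was higher and 4 lower in WT and 1 higher and 3 lower in TG, and the medians were -0.10 and -0.070. Without WT NX replicate 0, which is also the library highest in Adipoq, 3 were higher in WT, and without WT IRI replicate 5 there were 1 higher and 2 lower. In TG 7 were higher without TG NX replicate 1 and none without TG NX replicate 2.

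Both calls after IRI were of members with low counts, which may not be the level of the message. Rpl36al, a second gene for the protein of Rpl36a, was at 0.309, 0.244 and 0.37 CPM in WT NX and 0.586 to 1.09 CPM (median 0.945) in WT IRI (1.54 ± 0.33, adjusted p = 0.00133), with no overlap. In TG it was at 0.519, 0.352 and 0.44 CPM against 0.491 to 1.05 CPM (median 0.69), and did not pass (0.73 ± 0.31, adjusted p = 0.0835). Rpl36a itself was at 63.8, 58.1 and 53.2 CPM in WT NX and 45.5 to 64.9 CPM (median 56.9) in WT IRI.

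Rps10, of the small subunit, was at 0.924, 0.704 and 0.506 CPM in TG NX and 0.835 to 2.28 CPM (median 1.77) in TG IRI (1.25 ± 0.35, adjusted p = 0.00997), with the lowest IRI library inside the NX range. The call ended without TG NX replicate 2 (1.05, adjusted p = 0.0652), and in WT Rps10 did not pass (0.16 ± 0.33, adjusted p = 0.766). With pseudogene counts added to their members, the change of Rps10 in TG was 0.53 (adjusted p = 0.0351) and that of Rpl36al in WT 1.04 (adjusted p = 0.0108).

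Among genes that build the ribosome, more were called higher than lower after IRI in the assembly lists but not in every list. Over all genes 16.8% were higher and 14.1% lower in WT and 16.4% and 13% in TG. Of 48 large subunit assembly genes 21 were higher, 1 lower and 26 not called in WT, and 23, 1 and 24 in TG, with medians of 0.17 and 0.28 against -0.01 and -0.01 over all genes. Zfp622, which helps ready the new large subunit in the cytoplasm, rose from 26 ± 1.27 to 49.8 ± 5.33 CPM in WT (SD, n = 3 and 6, adjusted p = 2.54e-07). Eif6, which keeps new large subunits from joining too early, rose from 43.5 ± 2.65 to 78.4 ± 12.4 CPM in WT (adjusted p = 1.28e-05) and from 40.5 ± 2.93 to 91 ± 6.48 CPM in TG (adjusted p = 3.15e-07). Sbds, which acts in the release of Eif6, rose from 49.2 ± 6.22 to 81.2 ± 13.7 CPM in WT (adjusted p = 0.00022).

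Of 55 genes for ribosomal RNA modification and small subunit processing 18 were higher and 1 lower in WT and 23 and 1 in TG. Nop58, a core protein of the particles that methylate ribosomal RNA, rose from 15.6 ± 3.05 to 37.7 ± 7.42 CPM in WT (adjusted p = 2.31e-05). Riok1, a kinase of late small subunit maturation, rose by 1.27 ± 0.16 in WT and 1.44 ± 0.16 in TG on the log2 scale. The 1 lower gene in WT was Utp6, from 45.5 ± 3.18 to 30.8 ± 2.83 CPM (adjusted p = 2.79e-05). RNA polymerase I genes gave 3 higher and 5 lower of 20 in WT and 4 and 2 in TG. The number called was 2 without WT NX replicate 1, 5 without WT NX replicate 2, WT IRI replicate 0 or WT IRI replicate 2, and 2 in TG without TG NX replicate 1.

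Of 26 regulators of ribosomal protein synthesis and growth 12 were higher and 4 lower in WT and 11 and 2 in TG. Myc, a transcription factor that drives ribosome production, rose from 3.85 ± 1.23 to 64 ± 18.1 CPM in WT (4.05 ± 0.26, adjusted p = 7.44e-10) and by 4.58 ± 0.26 in TG. Of 14 translation factors with TOP messages 0 were called in WT (1 lower without WT IRI replicate 5) and 3 higher in TG (Pabpc1, Eef2 and Tpt1, 0.26 to 0.37). Mitochondrial ribosomal proteins gave 2 higher and 18 lower of 78 in WT and 1 and 13 in TG. The number called was 10 without WT NX replicate 0, 12 without WT NX replicate 1 and 13 without WT NX replicate 2, and 9 in TG without TG NX replicate 0. These comparisons of IRI with NX share their NX libraries with that of TG with WT after NX.

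Rpl22l1, a paralog of Rpl22 that the symbol rule leaves out, rose from 9.88 ± 1.24 to 19.2 ± 1.97 CPM in TG (0.96 ± 0.14, adjusted p = 4.76e-05). In WT it went from 13.2 ± 1.76 to 17.6 ± 3.06 CPM (0.41 ± 0.14, adjusted p = 0.0316), a call that ended in 5 of the fits without 1 library (adjusted p 0.0504 to 0.12). Rpl22 itself was at 123, 113 and 105 CPM in WT NX and 96.5 to 113 CPM (median 103) in WT IRI, and did not pass (-0.13 ± 0.07, adjusted p = 0.198).

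Markers of other cells were also called with IRI. Over all genes 16.8% were higher and 14.1% lower in WT and 16.4% and 13% in TG. All 5 red cell genes were higher in WT and 4 of 5 in TG. Leukocyte genes gave 3 higher and 1 lower of 13 in WT and 3 and 2 in TG, near those shares. Endothelial genes were higher for 2 of 6 in WT and 1 of 6 in TG. Adipocyte genes were lower for 3 of 6 in WT, where WT NX libraries summed to 15.3 to 665 CPM (median 18.1), and 0 were called in TG. Proximal tubule genes were lower for 4 of 8 in WT and 5 of 8 in TG, with sums of 20485 to 27340 CPM in WT NX and 17468 to 19731 CPM in WT IRI. Their part in the ribosomal protein values was not tested.

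**Figure D3:**
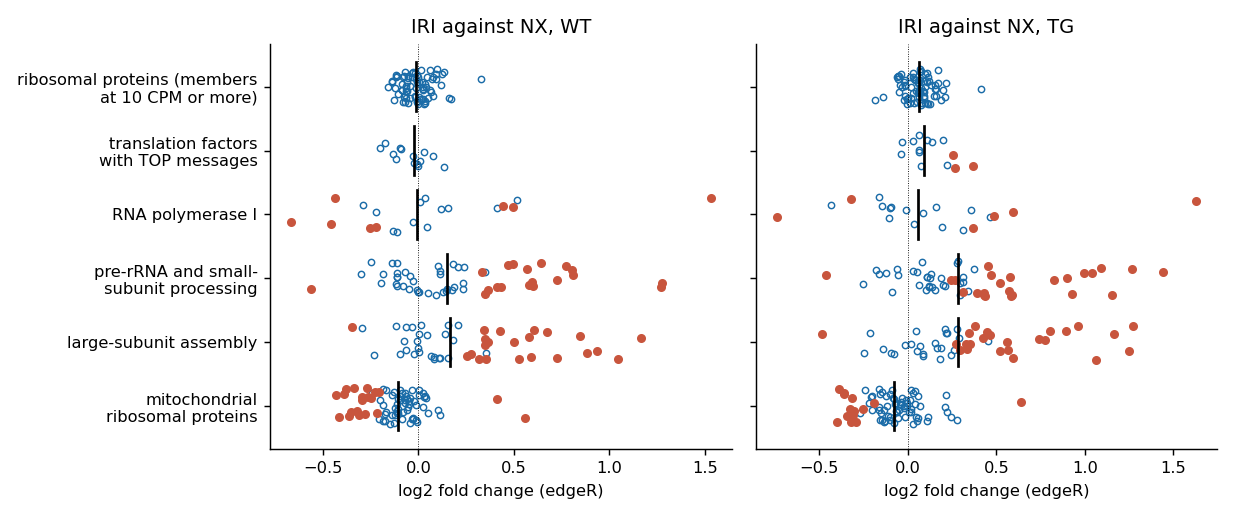
Fitted log2 fold change (x axis) of IRI against NX in WT and TG for ribosomal protein genes at 10 CPM or more and for other gene lists of ribosome production; filled points passed the edgeR test, open points did not, and black bars are medians. The ribosomal proteins gather near 0 with no call, while 21 of 48 large subunit assembly genes in WT and 23 of 48 in TG were called higher.

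Among the paralogs, Rps27l, which p53 can induce, stood near its partner per length (111 CPM per kb, against 108 for Rps27). Of the 150-base windows of Rps27 51.1% also occur in another gene's transcript, against 0% for Rps27l. The Rps27 value may therefore not be the level of its message. Rps27l was the 1 member lower in TG females, at 93, 73.9 and 74.6 CPM against 111, 98.5 and 103 CPM in TG males (-0.37 ± 0.10, adjusted p = 0.0174), with no overlap. The call ended without TG male replicate 0 or TG female replicate 1 or 2 (adjusted p 0.0686 to 0.0823). In WT it was at 95.7, 87 and 90.1 CPM in females and 109.79, 107 and 90.2 CPM in males (adjusted p = 0.255).

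Rpl3l, known from heart and skeletal muscle, was the 1 member lower in WT females, at 0.82, 0.387 and 0.349 CPM against 1.38, 1.45 and 1.19 CPM in WT males (-1.37 ± 0.35, adjusted p = 0.0143). The groups did not overlap, but the call ended without WT female replicate 1 or 2 (adjusted p = 0.0565 and 0.062) and without the libraries high in Adipoq (adjusted p = 0.0986), and in TG it did not pass (-0.87 ± 0.34, adjusted p = 0.0906). Rps4l was at 12.1 to 19.6 CPM in the no-surgery table and 4.86 to 12.5 CPM in the other, which was scaled separately, and was called in no comparison.

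**Figure D4:**
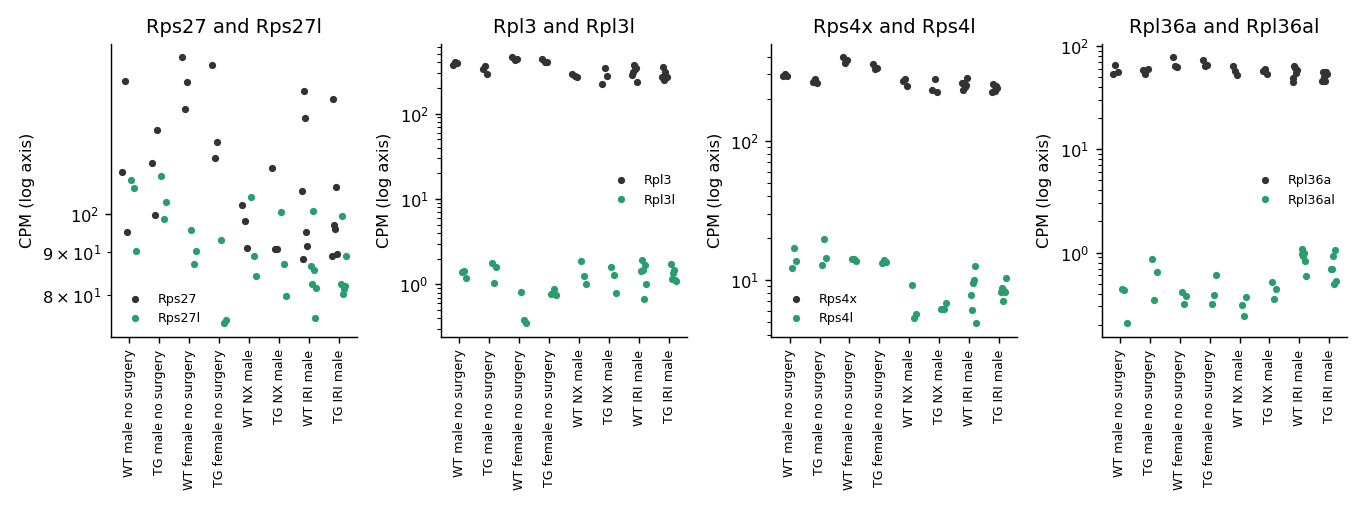
CPM (log axis) of 4 ribosomal protein genes and their paralogs in each library, by group. Rps27l lies near Rps27, whereas Rpl3l, Rps4l and Rpl36al stay far below Rpl3, Rps4x and Rpl36a in all 8 groups. How reads with several matches were counted is not stated in the sources used here.

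Rplp0, a stalk protein whose message is a common reference gene, was uneven within groups. Its counts ran opposite to those of Gm8730, a processed pseudogene of it on chromosome 8 (103591477 to 103592430, minus strand, GRCm39), while Rplp0 lies on chromosome 5 (115697526 to 115701786, plus strand). Over 954 bases the pair is 98.7% identical, with 12 substitutions, written with the Rplp0 base first and counted from the A of its ATG: T72C, G138C, T192C, T300C, A390G, A393G, A447T, G502A, G558C, T603G, A696G and A784G. Positions 380 to 610 are printed because 6 of the substitutions, in capitals, fall there and the stretches between them are the same in both.
Rplp0: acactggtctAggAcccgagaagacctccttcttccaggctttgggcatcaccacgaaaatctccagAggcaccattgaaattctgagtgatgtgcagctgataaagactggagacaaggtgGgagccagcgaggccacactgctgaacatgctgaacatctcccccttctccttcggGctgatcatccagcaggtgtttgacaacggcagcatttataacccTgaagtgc
Gm8730: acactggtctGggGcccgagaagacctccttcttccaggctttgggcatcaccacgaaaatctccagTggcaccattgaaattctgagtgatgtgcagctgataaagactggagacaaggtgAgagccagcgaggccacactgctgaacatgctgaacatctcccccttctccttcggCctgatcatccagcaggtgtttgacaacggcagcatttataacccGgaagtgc

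Gm8730 was either low or high in a library. It was at 1.6 to 5.37 CPM in 11 libraries, where Rplp0 was at 366 to 512 CPM (median 449.89), and at 35.6 to 87.7 CPM in 19 libraries, where Rplp0 was at 249.97 to 401 CPM (median 328). In WT males Rplp0 was at 463, 374 and 456 CPM where Gm8730 was at 3.76, 55.2 and 5.18 CPM. The low libraries were 2 WT males, 1 TG male and 1 WT female without surgery, all 3 TG NX, 3 WT IRI and 1 TG IRI. All 3 WT NX libraries were high (39.8, 47.5 and 42.4 CPM) and all 3 TG NX libraries low (1.71, 1.66 and 1.6 CPM). Gm8730 was therefore called between these groups (-4.71, adjusted p = 5.88e-07), but not when all 18 libraries entered the fit (-4.70, adjusted p = 0.515). Rplp0 was called in no comparison.

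Rpsa, a small subunit protein also known as a laminin receptor, was set beside the pseudogene Rpsa-ps10 on chromosome 3 (149778295 to 149779179, minus strand, GRCm39). Rpsa-ps10 was at 0.952 to 4.5 CPM in 10 libraries and at 41.6 to 71.8 CPM in 20. All 6 females were low, with Rpsa at 411 to 499.88 CPM. Of the 6 males without surgery 1 WT and 1 TG library were low, with Rpsa at 448 and 413 CPM, and the other 4 were high, with Rpsa at 277 to 318 CPM. With NX or IRI 2 libraries were low, WT IRI replicate 5 with Rpsa at 333 CPM and TG IRI replicate 3 with Rpsa at 245 CPM. The other 16 were high, with Rpsa at 211 to 289 CPM. Rpsa was thus higher where the pseudogene was low in every no-surgery library and in 1 of the 2 low libraries with NX or IRI.

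Among the members called higher in WT females, Rpsa had the largest fitted difference, at 496, 478 and 499.88 CPM in females against 318, 448 and 277 CPM in males (0.50 ± 0.16, adjusted p = 0.0418). With pseudogene counts added to their members it was 0.33 (adjusted p = 0.0218). The call ended in 5 of the 6 fits without 1 WT library (adjusted p 0.0735 to 0.143). In TG Rpsa did not pass (0.36 ± 0.16, adjusted p = 0.136), nor with pseudogene counts added (0.19, adjusted p = 0.166). It passed without TG male replicate 1, the TG male with low Rpsa-ps10 (0.54, adjusted p = 0.0292). In that fit every TG male was high and every TG female low in Rpsa-ps10, so sex and pseudogene state cannot be told apart.

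For Rpl3 the pseudogene was Rpl3-ps1 on the X chromosome (13068810 to 13070019, plus strand, GRCm39), which shares 78.5% of the 75-base windows of Rpl3. In NX and IRI libraries Rpl3 was at 275 to 367 CPM in the 8 libraries with Rpl3-ps1 at 1.95 to 3.56 CPM and at 219 to 291 CPM in the 10 with 9.99 to 33.8 CPM, so the ranges overlapped. Without surgery Rpl3 was at 332 to 456 CPM in the 10 libraries with Rpl3-ps1 at 3.91 to 9.19 CPM. The 2 with more, WT male replicate 2 (12.6 CPM) and TG male replicate 2 (14.7 CPM), had Rpl3 at 391 and 288 CPM, the first of them inside the range of the others. WT IRI replicate 5 held the highest Gm8730 (87.7 CPM) and Rpl3-ps1 (33.8 CPM) of all libraries and the lowest Rplp0 (249.97 CPM). The cause of these states was not tested. With the counts of 247 annotated pseudogenes that share at least 10% of a member's 75-base windows added to 59 members, 35 members were called higher and 1 lower in WT females and 20 and 1 in TG females, close to the counts without them.

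**Figure D5:**
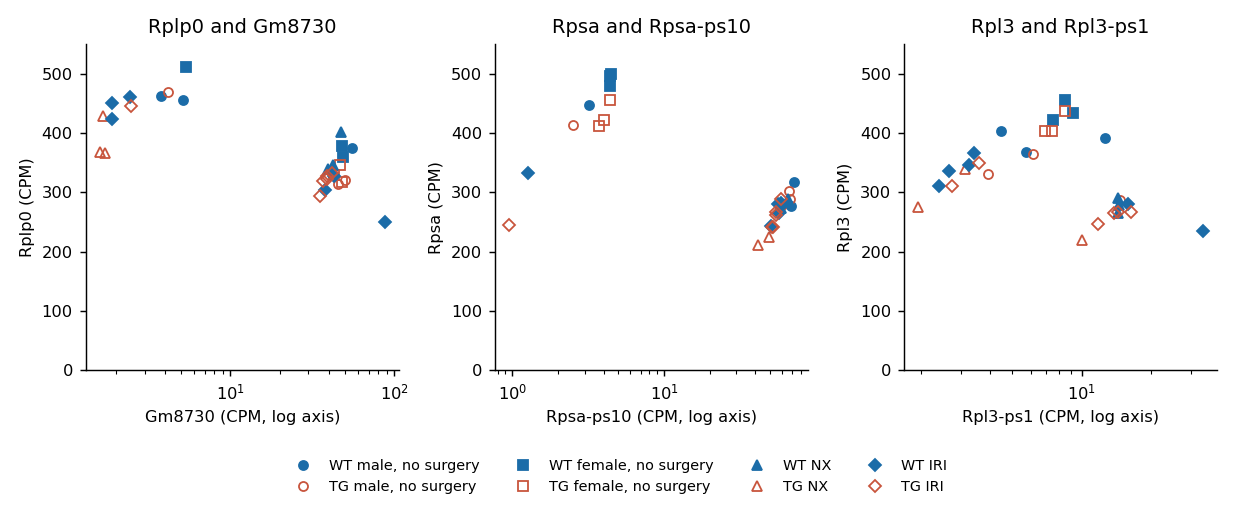
CPM of Rplp0, Rpsa and Rpl3 (y axes) against CPM of a processed pseudogene of each (x axes, log scale) in 30 libraries of 2 separately scaled tables, with colours for genotype and shapes for sex and surgery. Libraries with Gm8730 at 1.6 to 5.37 CPM hold Rplp0 at 366 to 512 CPM and those at 35.6 to 87.7 CPM hold 249.97 to 401 CPM, and all 6 females have low Rpsa-ps10.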

How the data were processed

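Poly-A RNA of mouse kidney was sequenced in paired reads, per the labels' protocols. The submitters' processing notes name fastp 0.23.2, STAR 2.7.0 and the build GRCm39; per the file headers, reads over Ensembl exons and an added EGFP entry were counted with featureCounts 2.0.3. The authors deposited raw counts per gene. Strand, read pairs and multiple matches are not stated in the sources used here; 37.3 to 41.9% of counts of 10 or more were odd, so halved counts were tried. Symbols came from GENCODE M21 (51880 of 57133 identifiers, 90.8%), windows and starts from RefSeq GRCm38.p6, positions of genes from the deposited tables (GRCm39).

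Differences were tested with edgeR 4.0.16 in R 4.3.3 (TMM, filterByExpr, two-sided quasi-likelihood test, Benjamini-Hochberg adjusted p under 0.05 over all genes tested), after a test on simulated counts. Sex, and genotype without surgery, used all 12 no-surgery libraries; IRI against NX used all 18; TG against WT with NX or IRI used those libraries alone. SEs are the estimate over the root of F.

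The members and lists were chosen with earlier results of these data known. Named were, per comparison, up to 4 called members each way by adjusted p and those farthest from the median, a set of fixed members and paralogs with their partners, the 3 highest and lowest per kb, leading genes of other lists, and the predicted genes Gm8730 and Gm6969. Some items are not reported here. Rpl14 in WT, Rpl21, Rps15a, Rpsa-ps10 and Rpl3-ps1 were named after their values were seen. Deviations from group means correlated above 0.1 in every same-number pair for TG against WT males (lowest 0.13), females against males in WT (lowest 0.14) and TG against WT with NX (lowest 0.13), a hint from the data alone, and not in every pair elsewhere. Pairs of unlike numbers reached 0.36, 0.15 and 0.08 in the same order. Like and unlike numbers thus overlapped for TG against WT males and for sex in WT. Alternatives were RLE and upper-quartile factors, TMM without ribosomal protein and mitochondrial genes, no filter, DESeq2 1.42.0, limma-voom 3.58.1, halved counts, a replicate block, other sets of libraries and each library left out. Added pseudogene counts and omission of libraries high in Adipoq were chosen after seeing the data.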

Additional observations from a re-analysis of the deposited data

Results flagged for a closer look

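In 56 sets of 6 IRI values examined, 6 had a single library far from the other 5. Chance gives about 1 in 20 in separate sets fixed in advance, which these were not. Rpsa-ps10 was named after its values were seen, and Gm8730 and Rplp0 ran opposite in the same libraries. The number is therefore no measure against chance. Rps10 was at 2.22 CPM in WT IRI replicate 3. Rps14 was at 264.80 CPM in WT IRI replicate 5, where the other 5 lay at 188 to 212 CPM. Rpsa-ps10 was at 1.27 CPM in WT IRI replicate 5 and at 0.952 CPM in TG IRI replicate 3. In TG IRI replicate 4, Gm8730 was at 2.47 CPM and Rplp0 at 444.95 CPM. The causes were not tested.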

How the results depend on the processing

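Members called in females against males were 17 to 46 in WT and 7 to 18 in TG when 1 library was left out, and 22 in WT with only the compared groups. For IRI against NX, leaving out 1 library gave 1 to 3 in WT and 0 to 7 in TG; without WT IRI replicate 5 the 3 calls were mostly lower. Upper-quartile factors gave 5 in WT and 4 in TG, mostly lower, with medians of -0.10 and -0.070. In TG, DESeq2 gave 2, halved counts 2, compared groups only 3 and limma-voom 5, and without libraries high in Adipoq WT gave 3; causes were not tested. The replicate block gave 41 and 21 members for sex in WT and TG, 1 and 1 for IRI, and 0 for genotype, so it changed no count by over 1.5 times. Members called between TG and WT, and in both interactions, were 0 under every alternative run. With mitochondrial genes out of the denominator the shares were 1.51% (WT males), 1.44% (TG males), 1.88% (WT females), 1.72% (TG females), 1.40% (WT NX), 1.33% (TG NX), 1.42% (WT IRI) and 1.33% (TG IRI). Members under 10 CPM, 9 of 84, were unlike in depth, from 0 counts in total for Rpl10l and 16 for Rpl39l to 17471 for Rpl13a. Low counts limit the sparsest of them. For Rpl24, Rps10 and Rpl13a, which share many windows with other genes, the value may not be the level of the message.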

Other observations

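Of 26 regulators of ribosomal protein synthesis 4 were lower and 0 higher in WT females, and 2 and 0 in TG females, where over all genes 11.3% were lower in each and 10.1% and 9.87% higher. These counts are near the shares over all genes, and in TG 1 was called without TG male replicate 0 or TG female replicate 1 or 2. The values of single genes follow. Mtor, the kinase that acts on TOP messages, was at 318 ± 26.9 CPM in WT females and 415 ± 9.73 CPM in WT males (SD, n = 3 each, adjusted p = 0.00865 by edgeR). Eif4ebp2, a repressor of cap-dependent translation, was lower in WT (-0.42 ± 0.07, adjusted p = 0.00107) and TG (-0.22 ± 0.07, adjusted p = 0.0404). Larp4b, an RNA-binding protein, was lower in both genotypes as well (-0.55 ± 0.07 in WT and -0.43 ± 0.07 in TG).

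Ribosomal RNA modification and small subunit processing genes gave 10 higher and 3 lower of 55 in WT females and 1 higher and 5 lower in TG females. Over all genes 10.1% were higher and 11.3% lower in WT females, and 9.87% and 11.3% in TG females. In TG the number called was 3 without TG male replicate 0 or 2 or TG female replicate 1. Nop56, a core protein of the methylating particles, was at 33.7 ± 1.36 CPM in WT females and 20.2 ± 1.44 CPM in WT males (adjusted p = 5.06e-05). Nhp2, of the particles that make pseudouridine, was lower in females in WT (-0.80 ± 0.12) and TG (-1.07 ± 0.12, adjusted p = 6.56e-05). Large subunit assembly genes gave 5 higher and 1 lower of 48 in WT females and 2 and 3 in TG females. With 1 library left out the number called there was 1 to 7 in WT and 0 to 2 in TG. RNA polymerase I genes gave 4 and 1 of 20 in WT and 4 and 2 in TG (2 to 6 and 3 to 5 called with 1 library left out).

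The predicted gene Gm6969 was also either low or high in a library. In WT males it was at 0.461, 24.5 and 26.8 CPM, in WT NX at 0.124, 24.03 and 0.225 CPM, and in TG NX at 0.0623, 21.8 and 24.2 CPM. It was high in 1 of 6 WT IRI libraries (20.3 CPM) and in 5 of 6 TG IRI libraries.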
